A study of Mus musculus with 8 samples.

Results

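Collagen genes were examined in reperfused mouse myocardium, with and without treatment by DJ-1 protein before ischaemia. The members were all genes whose platform symbol has the form of a collagen chain (Col, a type number, a, a chain number) on a probe set with a single symbol. This gave 44 genes on 46 probe sets, of 19938 genes measured in all: 11 chains of fibrillar collagens, 6 of basement membrane collagen and 27 of other classes. For Col6a5 and Col6a6, which had more than 1 probe set, the probe set of highest mean was taken. The rule itself reads gene symbols and levels, not differences between the groups.

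All 8 hearts came from male mice, 8 to 10 weeks old and of 25 to 30 g body weight, whose strain is labelled CH3. Both groups had the left anterior descending coronary artery closed for 45 minutes and then reopened for 2 hours, so the placebo hearts were themselves injured and reperfused. The groups differ in what was given 1 hour before the closure: phosphate-buffered saline (placebo, 4 hearts) or DJ-1, a redox-sensitive protein encoded by Park7 (4 hearts). The sources used here give neither the dose of DJ-1 nor whether hearts of several mice were pooled. Values are log2 expression on Affymetrix whole-transcript arrays, and every difference is the DJ-1 mean minus the placebo mean on that scale. The p-values measure the spread between these 8 samples.

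Collagens are the main structural proteins of the extracellular matrix, and each molecule is a helix of 3 chains that come from 1 or more genes. Fibrillar collagens, above all types I and III, form the fibres that carry tension between muscle layers. Type IV collagen forms the sheet under endothelium and around each cardiomyocyte, and the other classes coat fibrils, link them to cells or form finer filaments. In the heart fibroblasts make most fibrillar collagen, and collagen genes are known to rise as an infarct heals.

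The genes of the main type IV chains lie head to head and are known to be read in opposite directions from a shared promoter. Their promoter windows are shown because they give the clearest case among the members of chains with a common regulatory region, against which the heart-to-heart values of both genes can be read. Each window runs from 250 bases before to 50 after the RefSeq start (GRCm38.p6), 5′ to 3′ on the gene's own strand. Col4a1 is at chr8:11312777-11313076 on the minus strand and Col4a2 at chr8:11312555-11312854 on the plus strand. Capitals mark the 78 bases that both windows contain, chr8:11312777-11312854, printed once on each strand.
Col4a1: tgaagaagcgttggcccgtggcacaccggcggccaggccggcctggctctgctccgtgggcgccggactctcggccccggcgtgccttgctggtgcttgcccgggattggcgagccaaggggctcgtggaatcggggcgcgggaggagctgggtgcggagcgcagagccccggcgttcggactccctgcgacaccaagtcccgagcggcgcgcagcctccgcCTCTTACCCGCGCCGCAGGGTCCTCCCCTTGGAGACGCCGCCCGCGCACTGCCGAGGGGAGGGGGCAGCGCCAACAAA
Col4a2: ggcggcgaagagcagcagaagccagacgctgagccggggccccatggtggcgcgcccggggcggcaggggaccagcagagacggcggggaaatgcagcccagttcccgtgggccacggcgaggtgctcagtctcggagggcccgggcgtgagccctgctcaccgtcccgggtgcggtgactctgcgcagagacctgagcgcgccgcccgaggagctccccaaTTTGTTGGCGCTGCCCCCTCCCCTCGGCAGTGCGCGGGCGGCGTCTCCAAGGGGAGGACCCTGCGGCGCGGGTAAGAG
GC content was 74% in the Col4a1 window and 73.7% in the Col4a2 window, against a mean of 53.8% over the windows used, which leave out those of a single chromosome. The motif CCAAT, searched on both strands, occurred 1 time in each window. The motif GGGCGG occurred 1 time in the Col4a1 window and 3 times in the Col4a2 window, and TATAAA occurred 0 times in either. The Col4a1 match to GGGCGG lies in the shared bases, so it is the same site as 1 of the 3 in the Col4a2 window. Of these 32851 windows used, 37.4% held CCAAT, 35.7% held GGGCGG and 13.6% held TATAAA. Of the 38 windows matched to 35 of the 44 collagen genes, 34.2%, 60.5% and 13.2% held them. A match is a string of letters, and no site was tested.

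No difference in collagen expression between DJ-1 and placebo hearts was detectable with these arrays. No collagen gene passed an adjusted p of 0.05 in limma's moderated test with Benjamini-Hochberg adjustment over all genes: 0 of 44, where 0% of the 19938 genes passed. The smallest adjusted p among the members was 0.824. At an unadjusted p under 0.05 stood 1 of 44, Col9a3, against 5.99% of all genes, and without variance moderation 0 of 44. In 0 of 44 genes did the 4 DJ-1 values all lie on one side of the 4 placebo values, against 3.22% of all genes.

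The differences were small on the log2 scale, though not all were small beside their errors, as for Col9a3 (0.27, SE 0.12). The lowest was -0.15 (Col15a1) and the highest 0.28 (Col28a1), with a median of 0.08 over the 44 genes and 0.01 over all genes. Every one of the 44 intervals (95%) lay between -0.45 and 0.58, and 43 of them contained 0. A doubling, which is 1 on the log2 scale, therefore lay outside all 44 intervals as these arrays measure it. The unadjusted interval of a typical member reached 0.26 to each side, so smaller changes were not told from 0 with 4 arrays a group. This is not the limit of the adjusted test, which larger differences also missed. Col28a1, at 0.28, had an adjusted p of 0.824 in limma's test.

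**Figure D1:**
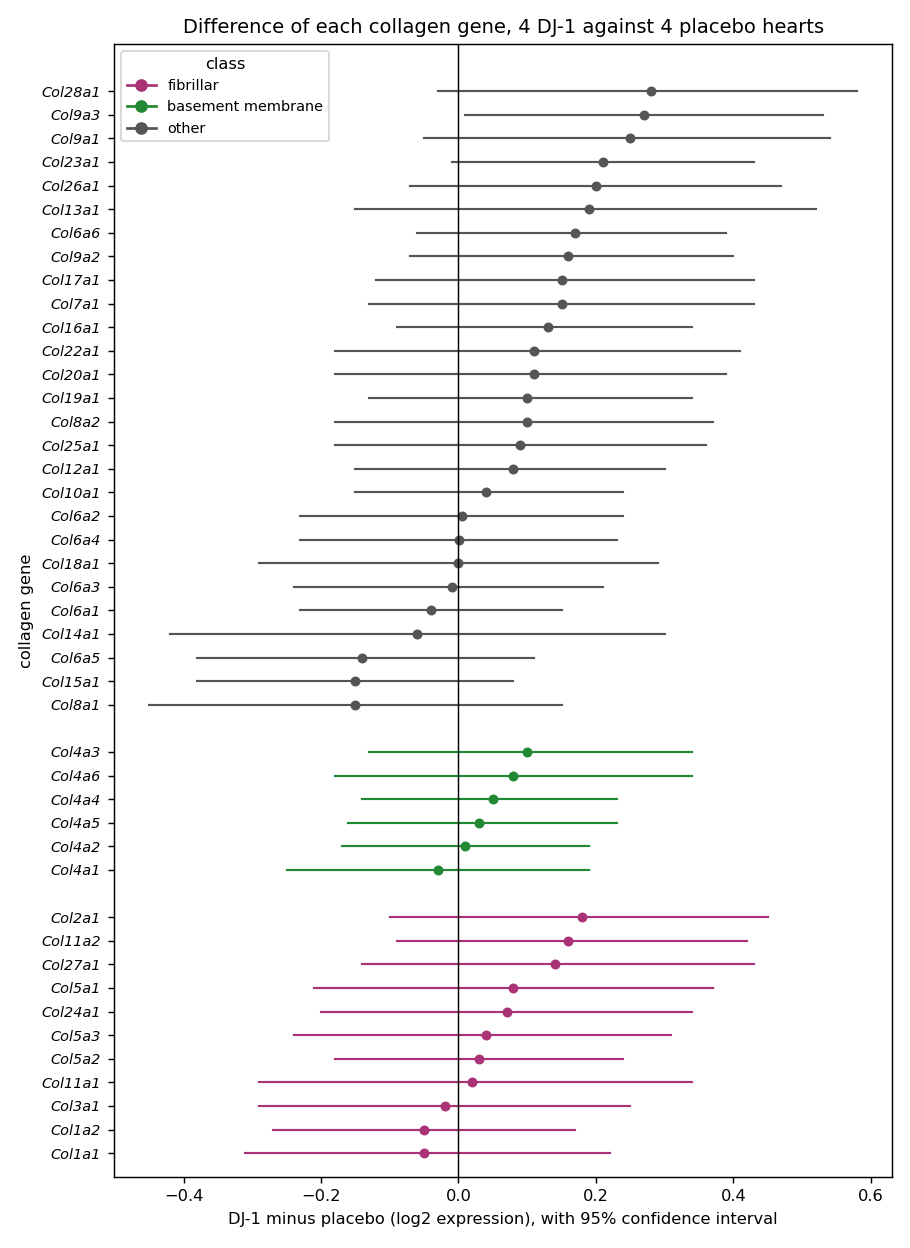
Difference of each of the 44 collagen genes (DJ-1 minus placebo, log2 expression, horizontal axis) with its 95% confidence interval from limma, 4 hearts a group, grouped by class. The intervals lie between -0.45 and 0.58, and that of Col9a3 (0.01 to 0.53) is the 1 of 44 that leaves out 0.

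The chains of type I collagen, the bulk of the stress-bearing fibres, differed between the groups by less than their spread between hearts. Col1a1 read 7.65, 8.10, 8.06 and 7.69 with placebo and 7.83, 7.72, 7.81 and 7.94 with DJ-1, each group in the order of its replicates 1 to 4, as throughout. Placebo replicates 2 and 3 were the highest of the 8 hearts, and the DJ-1 hearts lay inside the placebo range. The means were 7.87 ± 0.24 (SD, n = 4) and 7.83 ± 0.09 (SD, n = 4), a difference of -0.05 (SE 0.12, interval -0.31 to 0.22, adjusted p = 0.956).

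Col1a2, which supplies the partner chain of the same molecule, read 7.51, 7.84, 7.78 and 7.60 with placebo and 7.64, 7.51, 7.68 and 7.68 with DJ-1. Its highest hearts were again placebo replicates 2 and 3, and the groups overlapped. The difference was -0.05 (SE 0.10, interval -0.27 to 0.17, adjusted p = 0.94). Col3a1, which encodes the collagen of the finer, more compliant fibrils, read 6.59, 6.99, 7.07 and 6.88 with placebo and 6.81, 6.68, 6.92 and 7.03 with DJ-1. Placebo replicate 1 was the lowest heart for this gene, and all 4 DJ-1 hearts lay inside the placebo range. Its difference was -0.02 (SE 0.12, interval -0.29 to 0.25, adjusted p = 0.982).

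Type V collagen sits in the core of type I fibrils and sets their diameter. Col5a1 read 6.16, 6.38, 6.43 and 6.32 with placebo and 6.15, 6.21, 6.67 and 6.58 with DJ-1. The DJ-1 hearts were split: replicates 3 and 4 lay above every placebo heart, while replicate 1 lay below all of them and replicate 2 below 3 of the 4. The mean difference was 0.08 (SE 0.13, interval -0.21 to 0.37). Col5a2 read 5.55, 5.81, 5.82 and 5.65 with placebo and 5.80, 5.66, 5.71 and 5.76 with DJ-1, and the DJ-1 hearts again lay inside the placebo range (difference 0.03, SE 0.09).

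The other 6 fibrillar chains had differences from 0.02 (Col11a1) to 0.18 (Col2a1), none past the test. They are Col2a1, Col11a1 and Col11a2, best known from cartilage, the fibril-core chain Col5a3, and Col24a1 and Col27a1. Col2a1 read 5.62, 5.78, 5.91 and 5.51 with placebo and 5.74, 5.75, 5.87 and 6.18 with DJ-1 (adjusted p = 0.844). DJ-1 replicate 4 gave the highest of the 8 values for Col2a1, Col11a1, Col11a2, Col24a1 and Col27a1. Probe sets of 5 of 8 cartilage and valve markers were at or below the 95th percentile of olfactory receptor genes (4.74), which served as a guide to background because heart muscle hardly transcribes them.

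**Figure D2:**
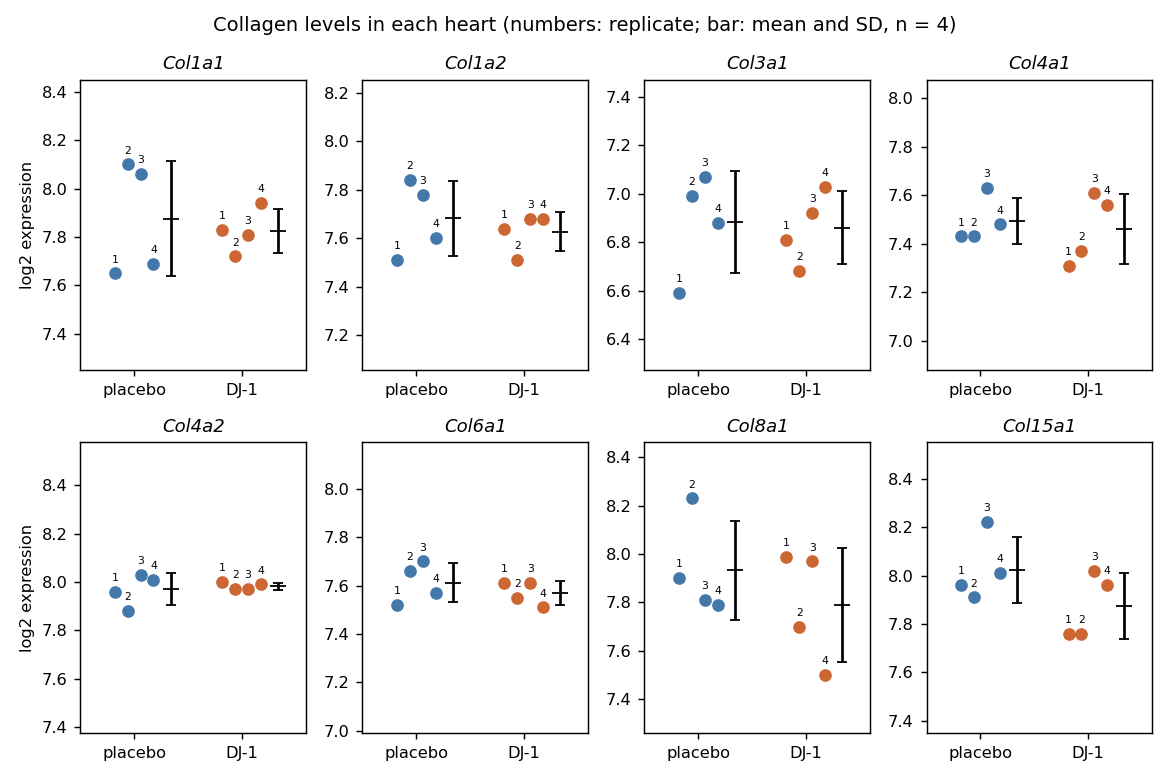
Log2 expression of 8 collagen genes in each heart (vertical axes, each panel with its own range), with placebo hearts in blue and DJ-1 hearts in orange. Numbers give the replicate, and bars the mean and SD (n = 4); in all 8 panels the groups overlap, and for Col1a1 placebo replicates 2 and 3 (8.10 and 8.06) are the highest hearts.

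Basement membrane collagen had the tightest values of the 3 classes. Col4a1 and Col4a2 encode the chains found in nearly every basement membrane. Col4a2 read 7.96, 7.88, 8.03 and 8.01 with placebo and 8.00, 7.97, 7.97 and 7.99 with DJ-1. Its SD over all 8 hearts, 0.04, was the smallest of the 44 collagens, and the difference was 0.01 (SE 0.08, interval -0.17 to 0.19, adjusted p = 0.988).

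Col4a1 read 7.43, 7.43, 7.63 and 7.48 with placebo and 7.31, 7.37, 7.61 and 7.56 with DJ-1. Placebo replicate 3 and DJ-1 replicates 3 and 4 were its highest hearts and DJ-1 replicates 1 and 2 its lowest. The difference was -0.03 (SE 0.10, interval -0.25 to 0.19, adjusted p = 0.965). Col4a3, Col4a4 and Col4a5, which form the specialised network of the kidney filter, and Col4a6 had differences from 0.03 (Col4a5) to 0.10 (Col4a3). Col4a6 was at or below the olfactory guide level of 4.74, as were Col10a1 and Col12a1, and 41 of the 44 members were above it.

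Type VI collagen forms beaded filaments between basement membranes and the fibrillar matrix. Col6a1 read 7.52, 7.66, 7.70 and 7.57 with placebo and 7.61, 7.55, 7.61 and 7.51 with DJ-1 (difference -0.04, SE 0.09). Col6a2 read 7.54, 7.60, 7.74 and 7.45 with placebo and 7.47, 7.46, 7.67 and 7.76 with DJ-1 (difference 0.0048, SE 0.11). Both genes had overlapping groups, with adjusted p of 0.948 and 0.996.

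Col6a3, the long chain that completes the type VI molecule, read 6.82, 7.09, 7.22 and 7.02 with placebo and 6.96, 6.97, 7.10 and 7.05 with DJ-1. The DJ-1 hearts lay inside the placebo range, with a difference of -0.01 (SE 0.10). Of the remaining beaded filament chains, Col6a4 differed by 0.00095, Col6a5 by -0.14 and Col6a6 by 0.17, none past the test. The probe sets of Col6a6 disagreed in sign (0.17 and -0.12), so no direction can be given for that gene, while those of Col6a5 gave -0.14 and -0.17.

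Col15a1 and Col18a1 are multiplexins, which anchor basement membranes to the matrix around vessels and muscle fibres. Col15a1 had, with Col8a1, the lowest difference of all members. It read 7.96, 7.91, 8.22 and 8.01 with placebo and 7.76, 7.76, 8.02 and 7.96 with DJ-1. DJ-1 replicates 1 and 2 lay below every placebo heart, while replicates 3 and 4 lay among them (difference -0.15, SE 0.11, interval -0.38 to 0.08, adjusted p = 0.844). Without placebo replicate 3 it was -0.08. Col18a1, the source of the fragment endostatin, read 6.08, 6.15, 6.41 and 5.82 with placebo and 5.89, 6.09, 6.17 and 6.30 with DJ-1, a difference of -0.0012 (SE 0.13).

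Among the network-forming chains, Col8a1, made by vascular and valve cells, read 7.90, 8.23, 7.81 and 7.79 with placebo and 7.99, 7.70, 7.97 and 7.50 with DJ-1. Its highest value was in placebo replicate 2 and its lowest in DJ-1 replicate 4, with the other hearts interleaved. The difference was -0.15 (SE 0.14, interval -0.45 to 0.15, adjusted p = 0.869), and it was -0.05 without placebo replicate 2 or without DJ-1 replicate 4. Its partner chain Col8a2 and the growth plate collagen Col10a1 differed by 0.10 and 0.04. Col7a1, which forms anchoring fibrils beneath epithelia, differed by 0.15 (SE 0.13).

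The fibril-associated collagens (FACITs) bind the surface of fibrils and do not form fibrils themselves. Col14a1, a fibroblast product that limits fibril growth, was the most variable collagen between hearts, with an SD of 0.26 over all 8. It read 6.64, 7.44, 7.37 and 7.16 with placebo and 7.21, 7.14, 6.86 and 7.16 with DJ-1. Placebo replicate 1 was the lowest heart and placebo replicate 2 the highest, so the placebo hearts alone spanned the DJ-1 hearts (difference -0.06, SE 0.16, interval -0.42 to 0.30). Col12a1 read 4.53, 4.78, 4.58 and 4.53 with placebo and 4.59, 4.64, 4.89 and 4.61 with DJ-1, near the background guide, with a difference of 0.08 (SE 0.10).

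Col9a3, a chain of the cartilage FACIT type IX, had the smallest p of the members. It read 6.12, 6.23, 6.28 and 5.95 with placebo and 6.25, 6.33, 6.39 and 6.69 with DJ-1. DJ-1 replicate 4 was the highest heart and placebo replicate 4 the lowest, and DJ-1 replicate 1 lay below placebo replicate 3. The difference was 0.27 (SE 0.12, interval 0.01 to 0.53), with limma's unadjusted p = 0.0454 and adjusted p = 0.824. Without DJ-1 replicate 4 the difference was 0.17 (limma's unadjusted p = 0.138), and without placebo replicate 4 it was 0.20 (limma's unadjusted p = 0.131). Its partner chains Col9a1 and Col9a2 differed by 0.25 (SE 0.13) and 0.16 (SE 0.11). The remaining FACIT chains Col16a1, Col19a1, Col20a1 and Col22a1 differed by 0.10 to 0.13.

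The transmembrane collagens are held in the cell surface by a single membrane span. All 4 had a higher DJ-1 mean, from 0.09 (Col25a1) to 0.21 (Col23a1), and none passed the test. Col13a1, found at adhesion sites and the neuromuscular junction, read 5.64, 5.68, 5.98 and 5.61 with placebo and 5.57, 5.88, 5.87 and 6.33 with DJ-1. Its highest heart was DJ-1 replicate 4 and its lowest DJ-1 replicate 1 (difference 0.19, SE 0.15, interval -0.15 to 0.52). Without DJ-1 replicate 4 the difference was 0.05.

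Col28a1, a collagen of peripheral nerve, had the highest difference, 0.28 (SE 0.14, interval -0.03 to 0.58, adjusted p = 0.824). It read 5.02, 4.85, 4.95 and 5.03 with placebo and 5.24, 4.82, 5.47 and 5.44 with DJ-1. DJ-1 replicates 1, 3 and 4 lay above every placebo heart, and replicate 2 lay below all of them. Col26a1, the other chain outside the named classes, differed by 0.20 (SE 0.12).

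Set side by side, the 3 classes had medians of 0.04 (fibrillar), 0.04 (basement membrane) and 0.10 (other), against 0.01 over all genes. The medians of the classes lay close together beside the variation between hearts: the SD between replicates of a class's median deviation was 0.16 for fibrillar, 0.06 for basement membrane and 0.12 for other collagens. The DJ-1 mean was the lower one in 3 of 11 fibrillar, 1 of 6 basement membrane and 7 of 27 other chains. Within the last class the medians were -0.08 for 2 multiplexins, -0.01 for 6 beaded filament chains, 0.11 for 9 FACITs and 0.17 for 4 transmembrane chains.

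Over all members the DJ-1 mean was lower in 11 of 44 genes and higher in 33, where 47.5% of all genes had a lower DJ-1 mean. This count moved with single hearts and with scaling. It was 5 without placebo replicate 3, and 17 or 18 when DJ-1 replicate 3 or 4 was left out. With each array centred on its median it was 18 of 44, while the share over all genes became 59.6%. Without both DJ-1 replicates 3 and 4, a choice made after seeing the data, it was 29 of 44, where the share over all genes was 49.9%. The count of 0 genes without overlap also moved with single hearts: it was 1 of 44 without placebo replicate 2 (6.37% of all genes in that setting), 4 without placebo replicate 3 (7.54%), and 2 without DJ-1 replicate 1 (6.81%) or 2 (7.32%).

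The higher means lay mostly with chains outside a list of main heart chains, which was drawn up with earlier results of these data known. By level on these arrays the 2 sets overlapped: Col12a1, on the list, averaged 4.64 over the 8 hearts, and Col9a3, outside it, 6.28. Of 15 chains known as the main ones of heart matrix (types I, III, V, VI, VIII, XII, XIV, XV and XVIII and the main type IV pair, without the minor chains), 10 had a lower DJ-1 mean, with a median of -0.02. The count of 10 became 6 after quantile normalization (median 0.0033), 5 after cyclic loess (median 0.01) and 13 after median centring (median -0.07), so the sign is not settled. With a heart left out the count of 10 ran from 4 (without placebo replicate 3) to 12 (without placebo replicate 1), and without placebo replicate 2 it was 6. Of the other 29 chains, 1 had a lower DJ-1 mean and 28 a higher one, with a median of 0.11. The count of 1 became 4 after quantile normalization or cyclic loess and 5 after median centring. With a heart left out it ran from 1 to 7, the highest being 6 and 7 when DJ-1 replicate 3 or 4, respectively, was left out, and it was 2 or 3 without placebo replicate 1, 2 or 4. Genes of low level across the array also had mostly higher DJ-1 means: of all genes below the median level of 5.79, 33.8% had a lower DJ-1 mean, and of those above it 61.2%. The 18 collagens below that level included 1 with a lower mean, and the 26 above it 10. Each of those 10 was a main chain. Members of the other 29 that lay above 5.79 all had a higher DJ-1 mean, where 61.2% of all genes above it had a lower one. The part of level in the collagen pattern was not tested.

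By heart, the other 29 chains deviated from their own means over 8 hearts by -0.11, -0.06, 0.08 and -0.15 with placebo and by -0.06, -0.09, 0.15 and 0.24 with DJ-1. In DJ-1 replicates 3 and 4, respectively, 27 and 28 of the 29 chains were above their own mean, and in placebo replicate 3, 24 of 29 were. In the 5 remaining hearts 2 to 6 of 29 were. Placebo replicate 3 was thus the only placebo heart with a mean deviation above 0, and it stood lower than DJ-1 replicates 3 and 4. DJ-1 replicates 1 and 2 had deviations below 0. Each mean is taken over the same 8 hearts, so high values in some hearts place others below it.

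The 11 fibrillar chains followed the same hearts, with mean deviations of -0.15, 0.02, 0.16 and -0.14 with placebo and -0.09, -0.11, 0.10 and 0.21 with DJ-1. All 11 were above their own mean in placebo replicate 3 and in DJ-1 replicate 4. Only in placebo replicate 2 did the 15 main chains (0.10) and the other 29 (-0.06) lie on opposite sides of their means. The gap between these sets was wider in DJ-1 replicate 4, with 0.04 and 0.24. DJ-1 replicates 3 and 4 also had the highest array medians over all probe sets, 5.34 and 5.35 against 5.25 to 5.29 in the other arrays, and the highest scores on the first principal component (19.6 and 23.5; 26.3% of the variance). All genes below the median level deviated there by 0.06 and 0.10. These hearts were picked out after their values were seen, and leaving high hearts out of the DJ-1 group lowers its means by construction, so the direction of the next values is no test. Without these DJ-1 replicates the medians were -0.10 for the 15 main chains and -0.01 for the other 29, of which 18 then had a lower DJ-1 mean. What part these array-wide values have in the collagen pattern was not tested.

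**Figure D3:**
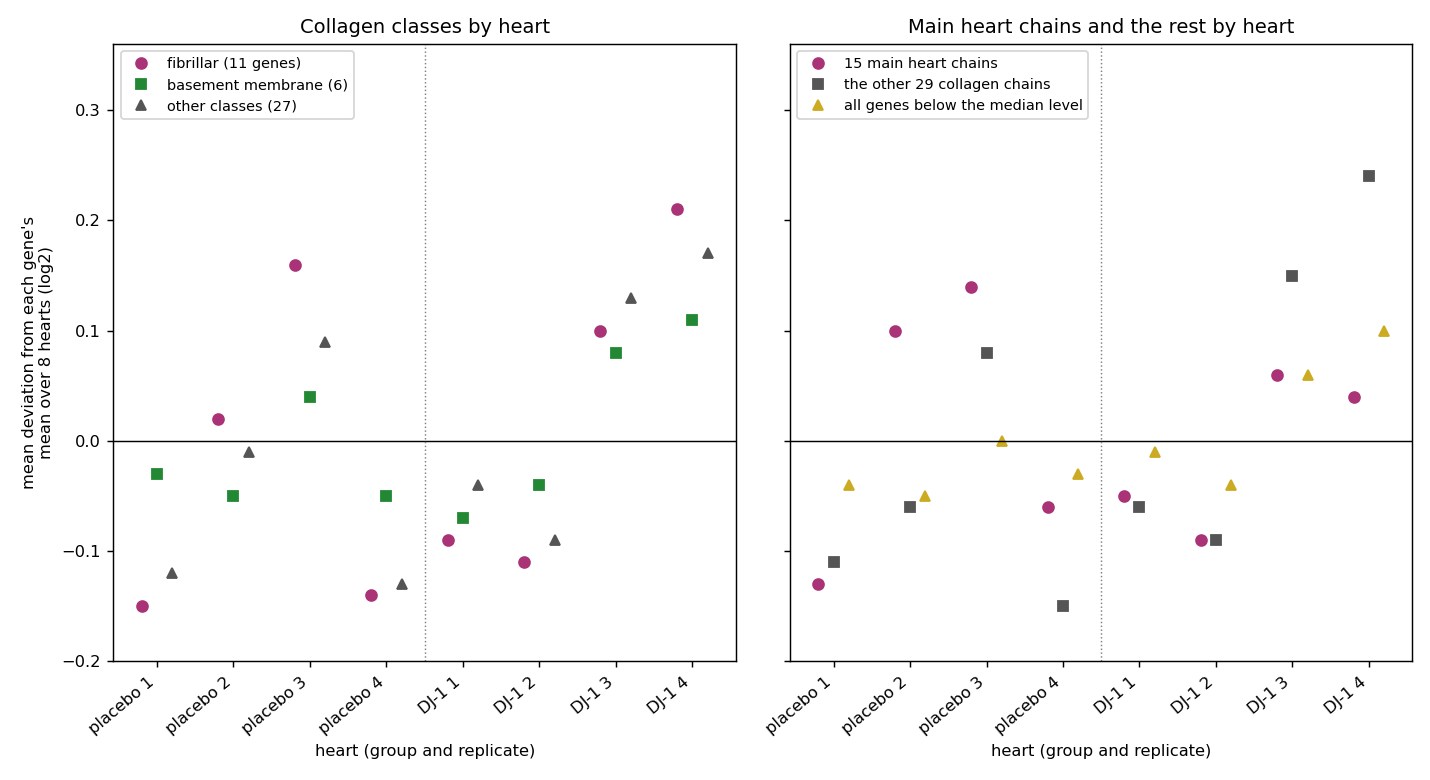
Mean deviation (log2, vertical axis) of gene groups from each gene's own mean over 8 hearts, for each heart (horizontal axis): on the left the 3 collagen classes, on the right the 15 main heart chains, the other 29 chains and all genes below the median level. The other 29 chains stand highest in DJ-1 replicates 3 and 4 (0.15 and 0.24) and next in placebo replicate 3 (0.08), while DJ-1 replicates 1 and 2 (-0.06 and -0.09) lie with the other placebo hearts.

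Chains that assemble into one molecule or fibril were compared across the 8 hearts in 12 pairs, with exact two-sided permutation tests adjusted over the 12. Col1a1 and Col1a2 moved together from heart to heart: Pearson's r was 0.95 (exact p = 0.000744, adjusted p = 0.00893) and Spearman's rho 0.86 (exact p = 0.0107, adjusted p = 0.0871). The r was 0.84 without placebo replicates 2 and 3, the hearts farthest from the Col1a1 median, and 0.95 for deviations from the group means. It passed under quantile normalization, median centring and cyclic loess (r from 0.93 to 0.96). Of the 19937 other genes, 0.015% had an r with Col1a1 at least as high as that of Col1a2, and 0.386% one at least as high as that of Col3a1.

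Col1a1 and Col3a1, which are laid down in mixed fibrils, had r = 0.83 (exact p = 0.0126, adjusted p = 0.0503) and rho = 0.81 (adjusted exact p = 0.0871). The adjusted p was 0.0323 after quantile normalization, 0.0321 after cyclic loess and 0.0772 after median centring, so this pair lay at the threshold. Without placebo replicates 2 and 3 its r was 0.81. Col3a1 and Col5a2, which are neighbours on one chromosome, had r = 0.79 (exact p = 0.0196, adjusted p = 0.0587) and rho = 0.76 (adjusted exact p = 0.11). Without placebo replicate 1 and DJ-1 replicate 2, the hearts farthest from the Col3a1 median, r was 0.39. These hearts had the lowest Col3a1 values, and leaving them out narrows its range, which can itself lower r. For deviations from the group means r was 0.82.

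Col11a1 and Col11a2 had r = 0.86 (exact p = 0.0058, adjusted p = 0.0348), with rho = 0.69 (exact p = 0.0694, adjusted p = 0.167) and r = 0.93 without DJ-1 replicates 2 and 4. Its adjusted p was 0.0323 after quantile normalization but 0.0545 after cyclic loess and 0.0756 after median centring. Of the other genes, 1.55% had an r with Col11a1 at least as high as that of Col11a2. In these chains the high hearts were placebo replicate 3 and DJ-1 replicates 3 and 4, as for the 29 minor chains. In all, 2 of 12 pairs passed by r and 0 of 12 by rho (at an adjusted exact p under 0.05).

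The head-to-head genes Col4a1 and Col4a2 did not pass: r was 0.30 (exact p = 0.502, adjusted p = 0.623) and rho 0.29 (exact p = 0.501, adjusted p = 0.601). Of the other genes, 30.9% had an r with Col4a1 at least as high as that of Col4a2. Their r was 0.68 after quantile normalization and after cyclic loess, 0.03 after median centring and 0.08 without placebo replicate 3 and DJ-1 replicate 3. Over the 8 hearts the SD was 0.12 for Col4a1 and 0.04 for Col4a2. The other head-to-head pairs had r = 0.63 (Col4a3 and Col4a4, adjusted exact p = 0.208, rho 0.83) and r = -0.08 (Col4a5 and Col4a6, adjusted exact p = 0.811, rho -0.29).

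For type VI, Col6a1 had r = 0.73 with Col6a3 (exact p = 0.0379, adjusted p = 0.0911, rho 0.55) and r = 0.22 with Col6a2 (adjusted exact p = 0.648, rho 0.07). The first passed after quantile normalization (adjusted exact p = 0.0323) and cyclic loess (adjusted exact p = 0.0254). The remaining pairs, Col5a1 with Col5a2, Col9a1 with Col9a2 and Col8a1 with Col8a2, had r of 0.34, 0.27 and -0.55, none past the test.

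**Figure D4:**
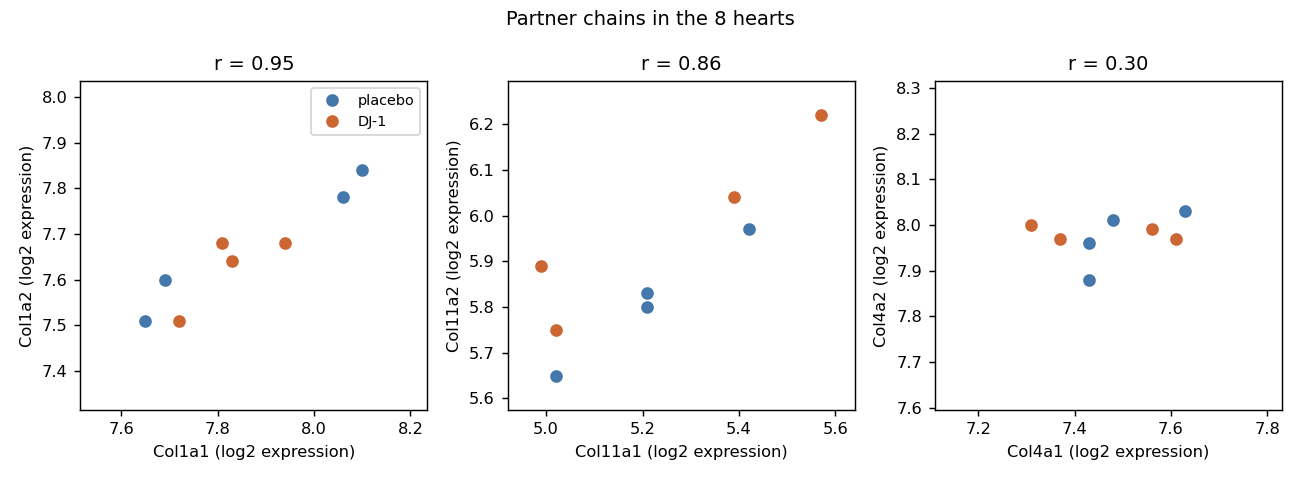
Log2 expression of partner chains in the 8 hearts (placebo blue, DJ-1 orange), with the first gene of each pair on the horizontal axis. Col1a1 and Col1a2 follow one line through both groups (r = 0.95), Col11a1 and Col11a2 do so less closely (r = 0.86), and Col4a1 and Col4a2 show little relation (r = 0.30).

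Collagen chains need modification, folding, trimming and crosslinking before they form fibres, and 57 of 61 listed genes of these steps, with receptors and proteases, were measured. Of these, 0 of 57 passed the adjusted p (0% of all genes), 2 had an unadjusted p under 0.05 (5.99% of all genes) and 1 had groups that did not overlap (3.22%). The DJ-1 mean was lower in 38 and higher in 19, with a median of -0.06, where it was lower in 47.5% of all genes and in 61.2% of those above the median level. In bulk tissue, fewer cells of a type and less RNA per cell cannot be told apart for any of these genes or for the collagens.

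The 15 hydroxylases, their partners and glycosyltransferases act on prolines and lysines of the new chain, and 10 had a lower DJ-1 mean (median -0.06). The smallest p was that of Crtap, a partner of the prolyl 3-hydroxylase (-0.16, SE 0.10, adjusted p = 0.832). P3h3, of the prolyl 3-hydroxylase family, was the 1 gene without overlap: it read 7.01, 7.00, 7.00 and 7.15 with placebo and 6.97, 6.91, 6.89 and 6.95 with DJ-1. Its difference of -0.11 (SE 0.08) did not pass (adjusted p = 0.847). Among 5 chaperones and export factors the median was 0.13. There Fkbp14, a folding enzyme of the endoplasmic reticulum, had the smallest p (0.24, SE 0.14, adjusted p = 0.824), and Serpinh1, the collagen chaperone HSP47, differed by 0.25 (SE 0.21).

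Of 9 genes for trimming the propeptides, 7 had a lower DJ-1 mean (median -0.03), with the smallest p for the procollagen peptidase gene Adamts3 (-0.17, SE 0.12, adjusted p = 0.846). Of 4 crosslinking enzymes 2 were lower (median 0.01), and the smallest p was that of Loxl1 (-0.12, SE 0.10, adjusted p = 0.852). Of 8 proteoglycans that bind fibrils, 6 were lower (median -0.13). Lum, or lumican, which regulates fibril spacing, read 8.92, 9.19, 9.07 and 8.87 with placebo and 8.80, 8.93, 8.37 and 8.71 with DJ-1. DJ-1 replicate 3 was its lowest heart and the groups overlapped (difference -0.31, SE 0.13, interval -0.59 to -0.02, adjusted p = 0.824).

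Of 9 receptors and uptake genes, 6 had a lower DJ-1 mean (median -0.09), with the smallest p for the collagen-binding integrin gene Itga10 (0.25, SE 0.12, adjusted p = 0.824). Of 7 collagen-cleaving proteases 5 were lower (median -0.07). The smallest p there was that of Fap, a protease of activated fibroblasts, which ran from 5.06 to 5.73 with placebo and, overlapping, from 4.61 to 5.17 with DJ-1 (difference -0.37, SE 0.16, adjusted p = 0.824). Mmp8, the neutrophil collagenase, had the widest spread: it read 5.51, 7.15, 4.45 and 3.91 with placebo and 7.32, 7.55, 6.14 and 5.01 with DJ-1. Its groups overlapped over more than 1 unit of log2, and the difference of 1.25 (SE 0.68, interval -0.23 to 2.73) did not pass (adjusted p = 0.824).

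Markers of the cells that could contribute collagen RNA were read beside these values, and none passed the adjusted p. The mean level of 10 fibroblast markers ran from 8.64 to 8.78 with placebo and from 8.51 to 8.69 with DJ-1 (7 of 10 lower, median -0.10). The level of 9 smooth muscle and pericyte markers ran from 8.87 to 9.02 and from 8.72 to 8.85 (8 of 9 lower, median -0.16), so on this list the groups did not overlap. These vessel-wall markers differed by -0.44 (Kcnj8, SE 0.13) to 0.21 (Acta2, SE 0.11), both with adjusted p = 0.824. Of all genes 47.5% had a lower DJ-1 mean, and of those above the median level 61.2%. Taken singly, 2 of these 9 markers and 1 of 10 fibroblast markers had no overlap, against 3.22% of all genes. Among 8 endothelial and 8 macrophage markers 0 had none. How often a list of this size separates without any effect was not tested. For 8 endothelial markers the ranges were 9.28 to 9.61 and 9.29 to 9.49, with differences from -0.48 (Kdr, adjusted p = 0.824) to 0.23 (Cldn5), and for 8 macrophage markers 7.31 to 7.72 and 7.41 to 7.74.

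The 8 ventricular cardiomyocyte markers were at 12.79 to 12.98 with placebo and 12.71 to 12.94 with DJ-1, with 0 of 8 at or below the olfactory guide, as a check of the tissue label. The 9 neutrophil markers varied most between hearts, from 4.95 to 7.67 and from 6.10 to 8.00. All 9 had a higher DJ-1 mean (median 0.78), where 47.5% of all genes had a lower one, and all 9 had overlapping groups. The 8 cartilage and valve markers were at 4.63 to 4.82 and 4.63 to 4.84, and the 4 measured Schwann cell markers at 5.31 to 5.55 and 5.39 to 5.58. For 7 epithelial markers the ranges were 4.25 to 4.79 and 4.23 to 4.40, for 5 mesothelial markers 5.20 to 5.90 and 5.54 to 5.86, for 5 adipocyte markers 4.58 to 4.90 and 4.69 to 4.84, and for 7 skeletal muscle markers 6.67 to 7.52 and 6.77 to 7.04. The skeletal muscle level was carried by Acta1 and Ckm (placebo means 10.88 and 12.60), while 3 of the 7 were at or below the olfactory guide. Placebo replicate 1 was the highest of the 8 hearts for Myh1 (5.85), Myh2 (5.41) and Tnnt3 (6.92), but not for Acta1. It was also the highest for the epithelial marker Scgb1a1 (4.92). The part of these markers in the collagen values was not tested.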

How the data were processed

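RNA with an integrity number above 7 (100 ng a heart) was amplified, labelled with biotin and hybridised by the authors, per the labels' protocols. The deposited log2 values were made by the authors with RMA (robust multi-array average), per the submitters' processing notes; its software and version were not given in the sources used here. The table holds 35556 probe sets, of which 21789 had a single gene symbol in the platform annotation (19938 genes, highest-mean probe set each). Nothing further was normalised. Correlations between arrays were 0.978 to 0.987, 0 pairs were identical, and the median SE was 0.117; the number of arrays limits the precision. Sample codes run through the placebo hearts and then the DJ-1 hearts, so if they follow a processing order, that order and treatment cannot be told apart.

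Groups were compared with limma 3.58.1 (lmFit, eBayes, two-sided) in R 4.3.3 and Benjamini-Hochberg adjustment over 19938 genes, without covariates, checked on simulated data. The olfactory guide is the 95th percentile of 1027 olfactory receptor genes. Pairs of chains were tested by exact permutation of all 40320 orders. Values in all hearts are given for the 15 main chains, collagens with unadjusted p under 0.05 or no overlap, and the 3 of largest SD; of each pathway list, the gene of smallest p and any without overlap are named, with or without their values by heart. Other genes named with values, among them Col2a1, Mmp8, Serpinh1 and the single markers, were chosen after they were seen. Members and lists were chosen with earlier results of these data known. Col21a1, Fkbp10, Adamts2, Loxl2, Gp6 and Cfd matched no singly named probe set and were not analysed here. The alternatives tried were quantile normalization, median centring, cyclic loess, the mean of all probe sets of a gene, the olfactory guide as a filter, an intensity trend, no moderation, the replicate number as a block, and leaving out arrays.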

Additional observations from a re-analysis of the deposited data

Results flagged for a closer look

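In 3 of 88 sets of 4 values (44 genes in each group), 1 heart lay apart from the others of its group by Dixon's criterion at the 95% level, which chance alone meets in about 1 in 20 sets. Col5a3 was 5.58 in DJ-1 replicate 1, where the nearest other DJ-1 heart was 5.99. Col10a1 was 4.13 in DJ-1 replicate 2 against 4.26, below the background guide in all 4 DJ-1 hearts. Col24a1 was 5.59 in placebo replicate 3 against 5.27, the heart in which all 11 fibrillar chains were above their own means.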

How the results depend on the processing

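No collagen passed the adjusted p of 0.05 under any alternative run (0 of 44, or 0 of 41 with the olfactory guide as a filter, which leaves out Col4a6, Col10a1 and Col12a1; smallest adjusted p from 0.651 to 0.996), and signal near background limits the dimmest chains. With the replicate number as a block, the replicate block gave 0 past the adjusted p, 2 at an unadjusted p under 0.05 (6.53% of all genes), and 11 lower means. Same-numbered hearts did not deviate together (correlations 0.00452 to 0.177; 0 of 4 placebo arrays were closest to their own number), so the numbers were not taken as pairs. The class medians kept their sign or moved by no more than about the spread between hearts. All 3 changed sign without DJ-1 replicates 3 and 4, an alternative chosen after seeing the data. They were then -0.09 (fibrillar), -0.02 (basement membrane) and -0.01 (other). That alternative also gave 29 lower means and 3 genes without overlap (of all genes, 13.1% had no overlap with these 6 arrays). Lower means were 18 with median centring and 5 to 18 with 1 heart left out, and genes without overlap 0 to 4.

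Some differences, none past the test, changed sign. After quantile normalization they were 0.01 for Col3a1, 0.0018 for Col4a1, 0.02 for Col6a3 and 0.0033 for Col18a1. After cyclic loess they were 0.01 for Col3a1, 0.01 for Col4a1, 0.00034 for Col6a1, 0.02 for Col6a3 and 0.0029 for Col18a1. After median centring they were -0.01 for Col5a2, -0.03 for Col4a2 and -0.04 for Col6a2, and r of Col6a1 with Col6a2 was -0.0038. Without DJ-1 replicates 3 and 4 they were -0.14 for Col5a1, -0.12 for Col6a2, 0.02 for Col14a1 and -0.00013 for Col13a1. With 1 heart left out, Col1a1 ran from -0.12 to 0.03, Col3a1 from -0.12 to 0.04, Col4a1 from -0.08 to 0.02, Col4a2 from -0.02 to 0.03, Col5a1 from -0.01 to 0.16, Col5a2 from -0.02 to 0.07, Col6a2 from -0.05 to 0.06, Col6a3 from -0.09 to 0.05, Col14a1 from -0.23 to 0.03 and Col18a1 from -0.10 to 0.10. By r, Col11a1 with Col11a2 had an adjusted exact p of 0.0756 (median centring) and 0.0545 (loess), Col1a1 with Col3a1 0.0323 (quantile) and 0.0321 (loess), and Col6a1 with Col6a3 0.0323 and 0.0254. The cause of these changes was not tested.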
